A study of Mus musculus with 11 samples.

Results

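The genes described here are 37 genes of mitosis, the division of the duplicated chromosomes between daughter cells, out of 28222 genes counted by RNA-seq in cultured mouse mesenchymal stem cells (MSCs, stromal cells that can form osteoblasts and adipocytes). They were chosen by name for their role in mitosis, with earlier results of these data known. All 37 were in the count table and passed the filter on low counts in every comparison. The 11 libraries were made from polyadenylated RNA of MSCs kept at 2% oxygen, young MSCs coming from mice of 3 to 5 months and old MSCs from mice of 18 to 22 months. Batch A held 4 young libraries, batch B 2 young and 2 old libraries, and batch C 3 old libraries. Both ages were therefore present only within batch B. The labels carried no genetic change and no drug or other treatment for any group, and gave neither the strain nor the sex of the mice. The study's methods describe MSCs grown out of bone and sorted as CD45- TER-119- Sca-1+ CD140a+ cells for an oxygen comparison, and the same handling was assumed for these libraries. Nothing in the labels states that each library came from a separate animal or culture, so that p-values measure the spread between these libraries, which may be technical.

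Total counts were between 11969336 and 20315934 per library, and 3 counts, taken as the smallest detectable level, corresponded to 0.156 to 0.253 CPM (counts divided by the TMM-adjusted library total and set to a common total). The 11 markers of MSCs summed to between 36650 and 100600 CPM. Most of this sum was from Col1a1 (18420 to 61710 CPM) and Col1a2 (14920 to 36230 CPM). Among the other markers, Pdgfra had 109 to 288.5 CPM and Ly6a 270 to 778 CPM. The 15 markers of macrophages and other leukocytes summed to between 158 and 1846 CPM and the 6 endothelial markers to between 4.54 and 12.4 CPM, and the 5 erythroid markers did not exceed 2.69 CPM in any library. None of the leukocyte markers was at 0 in all libraries of a group.

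Entry into mitosis is driven by cyclin-dependent kinase 1 (Cdk1) with the B-type cyclins. Aurora and Polo-like kinases then build the spindle, a microtubule array pulled by motor proteins on the kinetochores of each chromosome, and the spindle checkpoint holds the cell until all kinetochores are attached. The anaphase-promoting complex then releases the chromosomes and destroys the cyclins. Most of these genes are transcribed mainly in the G2 phase and in mitosis, under the control of Foxm1, Mybl2 and the DREAM complex, so that their RNA is widely read as a sign of dividing cells.

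Genes of this program often carry in their promoter a cell cycle genes homology region (CHR, here TTTGAA or TTCGAA) and CCAAT boxes. Promoter sequences were taken from RefSeq (GRCm38.p6) as windows of 250 bases before to 50 bases after the transcription start, and both motifs were searched on both strands. A window was found for 32 of the 37 genes, and not for Kif20a, Tpx2, Foxm1, Aurkb and Ccna2. A CHR was present for 23 of the 32 genes (71.9%) compared with 21.7% of 27025 genes with a window. A CCAAT box was present for 24 (75%) compared with 41.1%. Both motifs lay in 1 window for 21 genes (65.6%) compared with 8.61%. Neither motif was found for Birc5, Mad2l1, Mybl2, Nuf2, Nusap1 and Pttg1, which says only that these letters are not in these windows. For Ccnb1, Cenpa, Pttg1, Cdca3 and Cdca8, the RefSeq start lay between 84 and 2394 bases inside the gene as annotated by GENCODE, so that the window is not the sequence before the annotated 5′ end of these genes. The 120 bases before the start are given for 5 genes with a CHR upstream of the start, and the capitals mark the CHR (TTTGAA, or TTCAAA where read on the other strand, or TTCGAA) and the CCAAT box (CCAAT or its reverse complement ATTGG). These genes were picked after their values were seen.

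Cdk1 (chr10:69352913-69353032, minus strand): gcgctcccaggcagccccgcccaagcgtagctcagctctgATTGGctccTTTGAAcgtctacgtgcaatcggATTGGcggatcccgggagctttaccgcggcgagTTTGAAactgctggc
Top2a (chr11:99024190-99024309, minus strand): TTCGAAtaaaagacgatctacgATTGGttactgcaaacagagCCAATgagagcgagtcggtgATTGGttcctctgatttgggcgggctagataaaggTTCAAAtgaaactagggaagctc
Cdc20 (chr4:118437344-118437463, minus strand): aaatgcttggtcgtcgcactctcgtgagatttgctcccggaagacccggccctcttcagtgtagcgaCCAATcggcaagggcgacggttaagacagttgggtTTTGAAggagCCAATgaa
Kif11 (chr19:37376262-37376381, plus strand): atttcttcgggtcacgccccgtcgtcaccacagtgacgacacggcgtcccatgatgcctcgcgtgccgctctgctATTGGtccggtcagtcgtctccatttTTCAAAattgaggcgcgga
Mki67 (chr7:135716380-135716499, minus strand): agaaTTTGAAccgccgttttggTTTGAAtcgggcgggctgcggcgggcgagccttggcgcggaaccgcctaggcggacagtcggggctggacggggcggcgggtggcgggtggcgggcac

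In Cdk1, the catalytic kinase of mitotic entry, the stretch held 2 CHR motifs, which began 71 and 15 bases before the start. In Top2a, which encodes the topoisomerase that separates entangled chromosomes, CHR motifs began 120 and 23 bases before the start, with 3 CCAAT boxes between them. The stretches of Cdc20 (activator of the anaphase-promoting complex) and Kif11 (the motor that pushes spindle poles apart) each held 1 CHR, 18 and 19 bases before the start. In Mki67, a protein that coats mitotic chromosomes, both CHR motifs lay further away, at 116 and 98 bases.

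The summed level of the 37 genes was lowest in young MSCs of batch B and highest in batch A young replicate 1 and in old MSCs of batch C. It was 1366, 670.4, 873 and 775.5 CPM in batch A young replicates 1 to 4, and 389 and 452.5 CPM in the young libraries of batch B. In the batch B old libraries the sum was 795 and 534 CPM, and in the batch C old libraries it was 1293, 1116 and 1183 CPM. Both young libraries of batch B lay below the other 9 libraries for 30 of the 37 genes, as they did for 2.59% of all genes. As a share of all counts, the genes made up between 0.0369% (95% Wilson interval 0.036 to 0.0377) in batch B young replicate 1 and 0.150% (0.148 to 0.152) in batch C old replicate 1, intervals that cover counting error only. In these bulk libraries, fewer dividing cells and less RNA of these genes per dividing cell cannot be told apart.

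**Figure D1:**
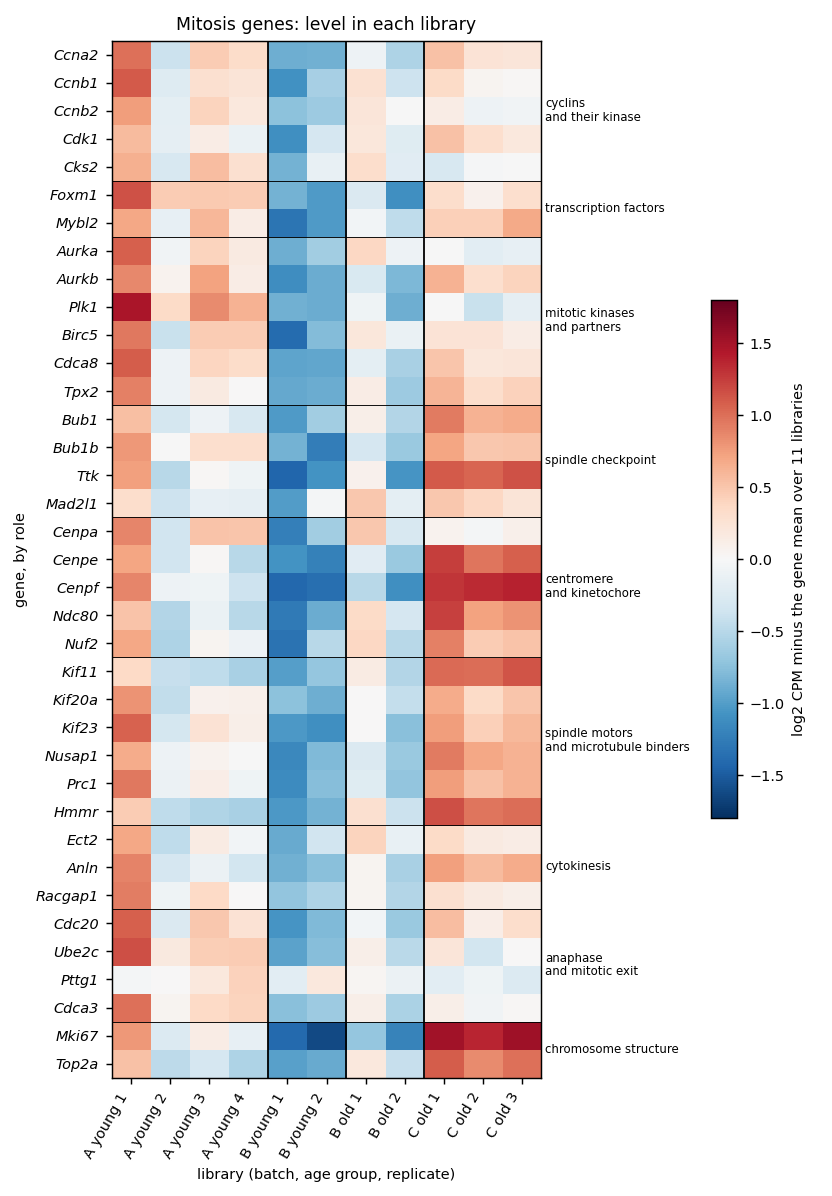
Level of each of the 37 mitosis genes (rows, grouped by role) in each of the 11 libraries (columns), as log2 CPM minus the mean of the gene over all libraries, with lines between groups. The batch B young columns are low for most genes, batch A young replicate 1 is the darkest red of its group for 36 of 37 genes, and Pttg1 is pale throughout.

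Libraries of the same group differed in these genes, and mostly in the same direction for all of them. Batch A young replicate 1 lay above the other 3 libraries of its group for 36 of 37 genes, whereas this was so for 28.6% of all genes, and its levels were a median of 1.79 times the mean of the other 3 (from 0.838 for Pttg1, securin, which keeps sister chromatids together until anaphase, to 2.20 for Anln, an actin-binding protein of the cleavage furrow). It was also the library with the highest total count. In old MSCs of batch B, replicate 1 exceeded replicate 2 for 37 of 37 genes compared with 50.4% of all genes, by a median of 1.5 times (from 1.10 for Pttg1 to 2.21 for the checkpoint kinase Ttk). In young MSCs of batch B, replicate 1 exceeded replicate 2 for 7 of 37 genes compared with 52.5% of all genes, with a median ratio of 0.857. The median coefficient of variation of the mitosis genes was thus 35.3% in batch A young and 28.3% in batch B old, but 12.5% in batch B young and 9.13% in batch C old. Over all genes the medians were 10.9%, 6.97%, 13.7% and 6.53% in the same order.

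The chromosome proteins Mki67 and Top2a were among the most abundant of the genes. Mki67 (chr7:135689784-135716361, GRCm38, minus strand) had 97.7, 47.9, 62.3 and 51.2 CPM in batch A young, 21.6 and 18.4 CPM in batch B young, 35.0 and 24.7 CPM in batch B old, and 163, 147 and 163 CPM in batch C old. Top2a had 120, 60.4, 67.6 and 56.5 CPM in batch A young, 42.4 and 44.4 CPM in batch B young, 94.6 and 62.2 CPM in batch B old, and 177, 150 and 165 CPM in batch C old. For both genes, the 3 batch C libraries were above the other 8 and the batch B young libraries were below the other 9. Per kilobase of the longest annotated transcript, Top2a was the highest of the 37 genes on the mean of the 4 groups (17.3 CPM per kb), and the transcription factor Mybl2 the lowest (1.36 CPM per kb). Mki67 held rank 20, 28 and 29 of 37 on that scale in batch A young, batch B young and batch B old, and rank 3 in batch C old. The ranks depended on the length used. Per kilobase of the median transcript length, Mki67 held rank 24, 28, 30 and 9 in the same groups, Top2a was again the highest on the mean of the groups, and Ttk was the lowest (2.47 CPM per kb).

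**Figure D2:**
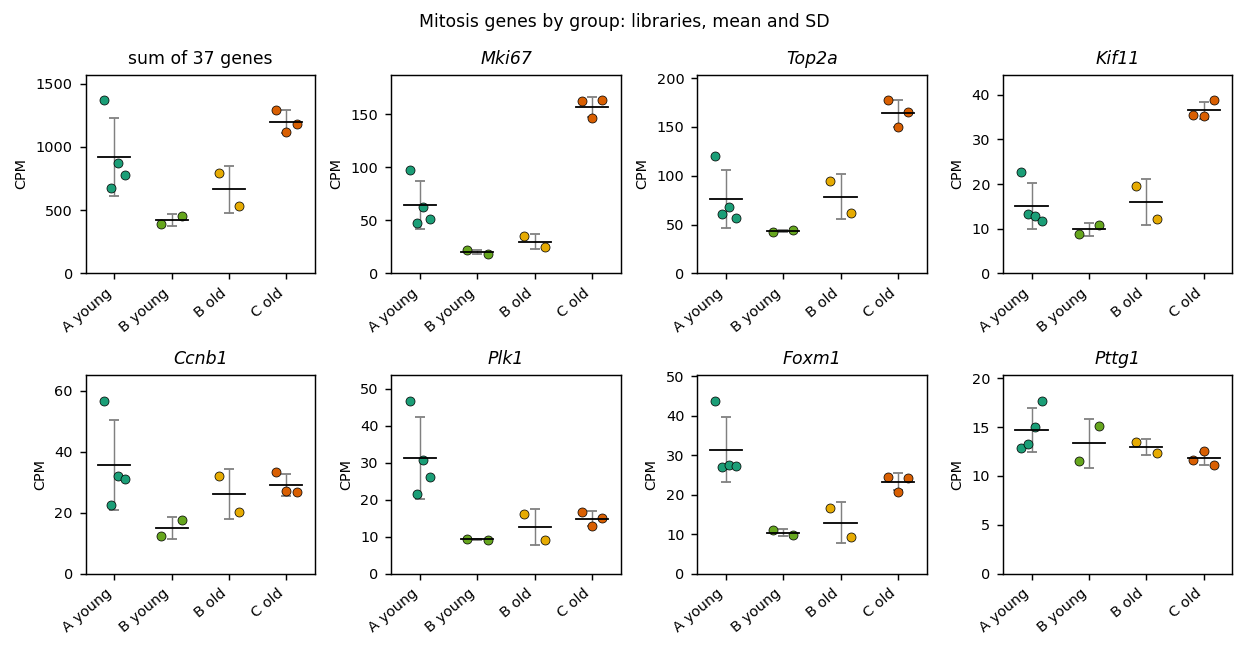
CPM in each library (points) for the sum of the 37 genes and for 7 single genes, by group, with the group mean (black line) and SD (grey bars; n = 4 batch A young, 2 batch B young, 2 batch B old and 3 batch C old). Batch C old lies above all other libraries for Mki67, Top2a and Kif11, whereas for Ccnb1, Plk1 and Foxm1 the highest library is in batch A young, and Pttg1 stays between 11.2 and 17.7 CPM.

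Among the cyclins and their kinase, Ccnb1 (cyclin B1) had 56.7, 22.4, 32.1 and 31.0 CPM in batch A young, 12.3 and 17.5 CPM in batch B young, 31.9 and 20.4 CPM in batch B old, and 33.4, 27.2 and 26.9 CPM in batch C old. Cdk1, its partner kinase, had 42.5, 25.5, 31.5 and 26.3 CPM in batch A young, 13.3 and 23.2 CPM in batch B young, 32.9 and 24.6 CPM in batch B old, and 41.2, 35.3 and 32.6 CPM in batch C old. The batch B young libraries were again the lowest for both genes, and batches B and C overlapped in old MSCs. Foxm1, the transcription factor that activates genes of G2 and mitosis, had 43.8, 27.1, 27.5 and 27.2 CPM in batch A young, 10.9 and 9.73 CPM in batch B young, 16.6 and 9.21 CPM in batch B old, and 24.6, 20.8 and 24.4 CPM in batch C old. Its highest libraries were therefore the 4 of batch A, and within batch B its young and old levels overlapped.

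The mitotic kinases did not all follow the same order across the groups. Plk1 (chr7:122159439-122169873, plus strand), the Polo-like kinase needed for spindle assembly and mitotic exit, had 46.7, 21.4, 30.6 and 26.1 CPM in batch A young, 9.32 and 9.12 CPM in batch B young, 16.1 and 9.21 CPM in batch B old, and 16.8, 12.8 and 15.1 CPM in batch C old. All batch A libraries exceeded all other libraries for this gene. Aurka, the kinase of spindle poles, had 25.8, 11.7, 16.2 and 13.6 CPM in batch A young, 6.67 and 7.96 CPM in batch B young, 15.9 and 11.6 CPM in batch B old, and 12.2, 10.7 and 11.02 CPM in batch C old. Birc5 (survivin), a subunit of the chromosomal passenger complex with Aurkb and Cdca8, had 27.4, 10.7, 19.4 and 19.4 CPM in batch A young, 5.42 and 8.23 CPM in batch B young, 16.4 and 13.02 CPM in batch B old, and 16.7, 16.8 and 15.6 CPM in batch C old. For Aurka and Birc5, batch C old thus lay close to batch B old and within the range of batch A young or just below it.

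At the kinetochore, Cenpf had 32.2, 16.5, 16.7 and 13.6 CPM in batch A young, 6.62 and 6.87 CPM in batch B young, 12.4 and 8.15 CPM in batch B old, and 42.9, 44.7 and 46.0 CPM in batch C old. Cenpa, the histone variant that marks centromeres, had 26.9, 11.6, 20.9 and 20.6 CPM in batch A young, 6.25 and 9.46 CPM in batch B young, 20.5 and 12.02 CPM in batch B old, and 15.2, 14.3 and 15.6 CPM in batch C old. The large kinetochore protein was thus highest in batch C, while the histone variant was not. Bub1b, a checkpoint protein that inhibits the anaphase-promoting complex, had 32.2, 18.5, 23.0 and 23.0 CPM in batch A young, 10.3 and 7.89 CPM in batch B young, 15.1 and 11.8 CPM in batch B old, and 30.4, 26.0 and 26.4 CPM in batch C old. Kif11 had 22.7, 13.3, 12.8 and 11.7 CPM in batch A young, 8.86 and 10.9 CPM in batch B young, 19.5 and 12.2 CPM in batch B old, and 35.5, 35.3 and 38.7 CPM in batch C old. Pttg1 stood apart from the others, with 12.9, 13.3, 15.03 and 17.7 CPM in batch A young, 11.6 and 15.1 CPM in batch B young, 13.5 and 12.3 CPM in batch B old, and 11.7, 12.6 and 11.2 CPM in batch C old.

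The comparison of ages asked whether the mitosis genes differed between young and old MSCs once the batches were accounted for. With batch in the model, the age coefficient rested on batch B, the only batch with both ages. None of the genes passed the edgeR test, and nearly all fitted differences were positive. Of the 37 genes, 36 had a positive log2 fold change (37 under scaling by total counts, which turned Pttg1), with a median of 0.64 compared with 0.0044 over all 16132 genes tested, and a range from -0.04 for Pttg1 to 1.13 for Ndc80. With edgeR's quasi-likelihood test and Benjamini-Hochberg adjustment, 0 of 37 genes were called at an adjusted p under 0.05, compared with 2.23% of all genes in either direction and 0.694% higher in old MSCs. At an unadjusted p under 0.05, 21 genes were higher in old MSCs and 0 were lower, compared with 7.05% of all genes higher. Both old libraries of batch B lay above both young libraries of batch B for 31 of 37 genes, compared with 19.2% of all genes.

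The smallest adjusted p-values belonged to genes of the kinetochore, of the passenger complex and to a B-type cyclin. Birc5 had a log2 fold change of 1.12 (SE 0.31, adjusted p = 0.0755, edgeR), Ccnb2 of 0.81 (SE 0.23, adjusted p = 0.0831), Ndc80, a microtubule-binding subunit of the kinetochore, of 1.13 (SE 0.33, adjusted p = 0.095) and Cenpa of 1.06 (SE 0.32, adjusted p = 0.098). The fifth was Aurka, at 0.91 (SE 0.29, adjusted p = 0.122). Among the other genes of mitotic entry and exit, the log2 fold change was 0.82 for Ccnb1, 0.67 for Cdk1, 0.46 for Plk1, 0.49 for Aurkb and 0.60 for Cdc20, and at the chromosome it was 0.57 for Mki67 and 0.86 for Top2a. Foxm1 had the second largest p-value with a log2 fold change of 0.31 (SE 0.27), and Pttg1 the largest. By role, the median was highest for the 5 centromere and kinetochore genes (0.87) and lowest for the 4 genes of anaphase and mitotic exit (0.55).

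The count of called genes depended on the tool and on single libraries. The limma-trend test called 0 (2.29% of all genes in either direction), DESeq2 called 5 (Birc5, Ccnb2, Cenpa, Hmmr and Ndc80; 3.97% of all genes) and edgeR without a filter on low counts called 25 (3.88%). EdgeR called 6 without batch A young replicate 1 (3.61% of all genes), 3 without batch A young replicate 2 (2.33%) and 4 without batch B young replicate 2 (12%), while without batch B old replicate 1 the median fell to 0.32 and 2 genes had an unadjusted p under 0.05. The summed leukocyte markers were also higher in old MSCs here, at 459 to 945 CPM in batch B young and 954 to 1357 CPM in batch B old. The log2 fold change was positive for 15 of 15 markers, with a median of 0.70 and 0 called. Between replicates the order varied. The leukocyte marker Csf1r had 91.7 and 31.1 CPM in batch B young, where the mitosis sum was 389 and 452.5 CPM. In batch B old Csf1r had 102 and 57.55 CPM, with a mitosis sum of 795 and 534 CPM. The part of the leukocyte markers in the result was not tested.

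**Figure D3:**
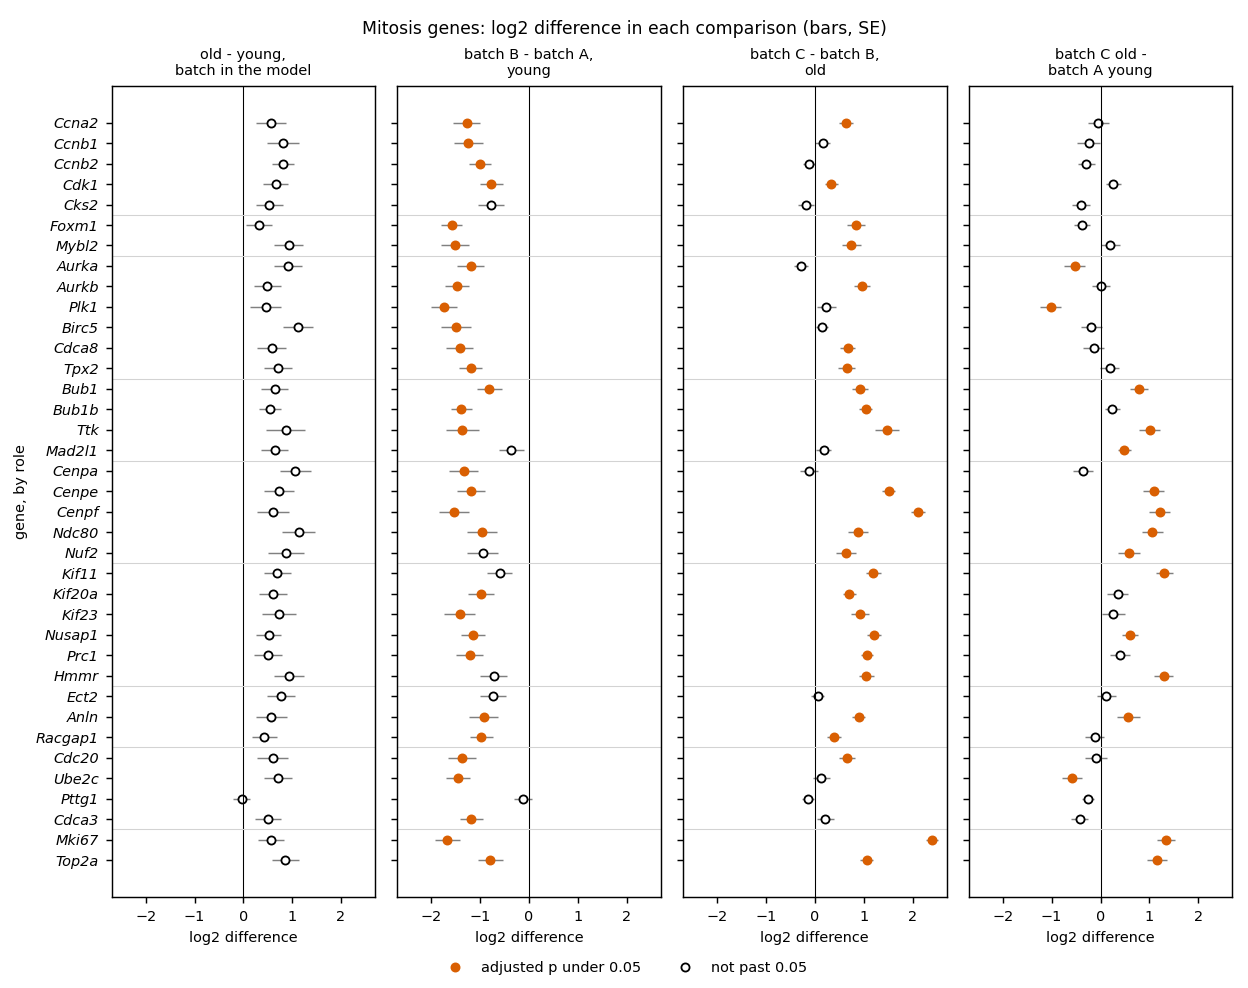
Log2 difference (points, with SE as bars) of each of the 37 genes in the 4 comparisons, with filled points for an adjusted p under 0.05 (edgeR). All points of the age comparison are open and lie above 0 except Pttg1, 30 are filled and below 0 for batch B against batch A, 25 are filled and above 0 for batch C against batch B, and the comparison of batch C old with batch A young has filled points on both sides.

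Young MSCs of batches A and B had the same age and oxygen label, and their comparison shows how far these genes varied without a difference in age. The comparison shares the batch B young libraries with the age comparison. Of the 37 genes, 30 were lower in batch B and 0 were higher, compared with 8.71% of all genes lower, and the median log2 difference was -1.20, compared with 0.0093 over all 14840 genes tested. Both batch B libraries lay below all 4 batch A libraries for 32 genes, compared with 20.8% of all genes. Under scaling by total counts, 25 were lower and 0 were higher. Over all 14840 genes, 1016 were then lower and 2004 were higher (20.4% called in either direction).

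All 6 genes of mitotic kinases and partners fell, among them Plk1 by 1.74 on the log2 scale (SE 0.27, adjusted p = 0.00201, edgeR) and Aurkb by 1.48 (SE 0.25, adjusted p = 0.00325). Both transcription factors fell, with Foxm1 having the smallest p-value of the 37 genes at a log2 difference of -1.58 (SE 0.21, adjusted p = 0.00155). Mki67 fell by 1.67 on the log2 scale (SE 0.25, adjusted p = 0.00193), Bub1b by 1.39 (SE 0.22, adjusted p = 0.0024) and Ube2c, the ubiquitin-conjugating enzyme of the anaphase-promoting complex, by 1.46 (SE 0.24, adjusted p = 0.00315). Top2a and Cdk1 fell by 0.79 and 0.77 on the log2 scale, with adjusted p-values of 0.044 and 0.0417 close to the threshold. The 7 genes that did not pass the test were the kinetochore subunit Nuf2, the Cdk1-binding subunit Cks2, the cytokinesis regulator Ect2, the spindle protein Hmmr, Kif11, the checkpoint protein Mad2l1 (log2 difference -0.36, SE 0.25, adjusted p = 0.337) and Pttg1 (-0.12, SE 0.19, adjusted p = 0.687). Without batch B young replicate 1 the median log2 difference was -1.07, and without batch B young replicate 2 it was -1.29. Each of these fits left 1 library in batch B, which was then assumed to vary like batch A. Of the 15 leukocyte markers 7 were lower in batch B and 0 were higher, with a median log2 difference of -1.10 and summed levels of 821 to 1846 CPM in batch A young and 459 to 945 CPM in batch B young, and their part in the result was not tested.

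Old MSCs of batches B and C likewise shared their age and oxygen label. In batch C, 25 of the 37 genes were higher and 0 were lower, compared with 32.1% of all 15651 genes tested that were higher. The median log2 difference was 0.67, compared with 0.0227 over all genes, and the 3 batch C libraries lay above both batch B libraries for 24 genes, compared with 38.8% of all genes. Scaling by total counts moved the median of all genes to 0.22. It gave 28 mitosis genes higher and 0 lower with a median of 0.87. Over all 15651 genes, 6472 were then higher and 3825 were lower (65.8% called in either direction). Relative to the median of all genes, the median of the mitosis genes was 0.65 under both scalings.

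The rise in batch C was uneven within the list. Mki67 rose by 2.39 on the log2 scale (SE 0.12, adjusted p = 1.58e-08, edgeR), Cenpf by 2.11 (SE 0.14, adjusted p = 9.37e-08) and Cenpe, the kinetochore motor, by 1.51 (SE 0.14, adjusted p = 1.32e-06). All 6 spindle motors and microtubule binders rose, including Prc1, which bundles the microtubules of the central spindle, by 1.08 (SE 0.13, adjusted p = 1.34e-05) and Kif11 by 1.2 (SE 0.15, adjusted p = 2.33e-05). Bub1b rose by 1.04 (SE 0.12, adjusted p = 1.61e-05), Top2a by 1.06 (SE 0.14, adjusted p = 3.41e-05) and Foxm1 by 0.85 (SE 0.19, adjusted p = 0.00181). In contrast, 3 of the 5 cyclin and Cdk1 genes and 3 of the 4 genes of anaphase and mitotic exit did not pass the test. Over all genes, 64.7% passed it in either direction. Ccnb1 had a log2 difference of 0.16 (SE 0.16, adjusted p = 0.407), Plk1 of 0.23 (SE 0.20, adjusted p = 0.318), Birc5 of 0.15 (SE 0.12, adjusted p = 0.288) and Ect2 of 0.06 (SE 0.14, adjusted p = 0.747). Negative differences that did not pass the test were found for Aurka (-0.28, SE 0.15, adjusted p = 0.113), Cks2 (-0.18), Pttg1 (-0.14), Ccnb2 (-0.12) and Cenpa (-0.12), and those of Pttg1, Ccnb2 and Cenpa became positive under scaling by total counts. The median over the 37 genes was 0.48 without batch B old replicate 2 and 0.9995 without batch B old replicate 1. The log2 difference was positive for 25 and 34 genes in these fits, compared with 32 with all libraries. Each of these fits left 1 library in batch B. The leukocyte markers moved the other way, 15 of 15 being lower in batch C with a median log2 difference of -2.71 and summed levels of 158 to 187 CPM compared with 954 to 1357 CPM in batch B old, and their part in the result was not tested.

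The unequal change was also visible in ratios of counts within libraries, which do not depend on scaling. The ratio of Mki67 to Plk1 counts was between 1.97 and 2.23 in batch A young, 2.31 and 2.02 in batch B young, and 2.18 and 2.68 in batch B old. In the batch C old libraries it was 9.70, 11.4 and 10.8. The ratio of Cdc20 to Ccnb1 counts, by comparison, was between 0.707 and 1.08 in all 11 libraries. These gene pairs were chosen after their values were seen.

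The batch C old and batch A young libraries differed in age and in batch at the same time, and these cannot be told apart. Of the mitosis genes 13 were higher in batch C old, 3 were lower and 21 did not pass the threshold. Over all 15021 genes tested, 32.0% were higher and 31.9% were lower, so that the share of mitosis genes that were higher was near that of all genes. The share of mitosis genes that were lower was below that of all genes. The groups did not overlap for 9 genes that were higher and 3 that were lower in batch C old, compared with 29.5% and 35.0% of all genes. Kif11 (log2 difference 1.31, SE 0.18, adjusted p = 3.5e-05, edgeR), Mki67 (1.33, SE 0.18), Top2a (1.16, SE 0.20), Cenpf (1.21, SE 0.21), Cenpe (1.09, SE 0.21) and Ndc80 (1.06, SE 0.22) were higher in batch C old. Plk1 (-1.02, SE 0.22, adjusted p = 0.00118), Ube2c (-0.58, SE 0.20, adjusted p = 0.0225) and Aurka (-0.53, SE 0.22, adjusted p = 0.0486) were lower. By role, 4 of the 5 kinetochore genes and 3 of the 4 checkpoint genes were higher, whereas 0 of the 5 cyclin and Cdk1 genes passed the test in either direction. Of the 15 leukocyte markers, 15 were lower in batch C old, with a median log2 difference of -3.18. Their summed levels were 158 to 187 CPM in batch C old and 821 to 1846 CPM in batch A young, and their part in the result was not tested.

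The batch C difference was set against the length of the transcript, and the relation depended on which length was used. Across the 37 genes, Spearman's rho between the log2 difference of batch C against batch B and the length of the longest annotated transcript was 0.53, and across 15625 genes tested it was 0.28. For batch C old against batch A young the values were 0.67 and 0.20. For batch B against batch A in young MSCs they were 0.14 and -0.13, and for the age comparison 0.11 and -0.16. With the median transcript length of each gene in place of the longest, rho across the 37 genes was 0.16 for batch C against batch B, 0.24 for batch C old against batch A young, -0.15 for batch B against batch A and 0.29 for the age comparison. Across all genes tested with a length, the values were 0.23, 0.18, -0.08 and -0.09 in the same order. These correlations are across genes, which share the same libraries and are not independent replicates. Of the 12 genes with the shortest transcripts (692 to 2965 nt), 4 were higher in batch C, compared with 21.2% of all genes of that length. Of the 13 of intermediate length (3334 to 3892 nt) 11 were higher, compared with 32.4%, and of the 12 longest (4086 to 11130 nt) 10 were higher, compared with 48%. The part of transcript length in the result was not tested further.

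**Figure D4:**
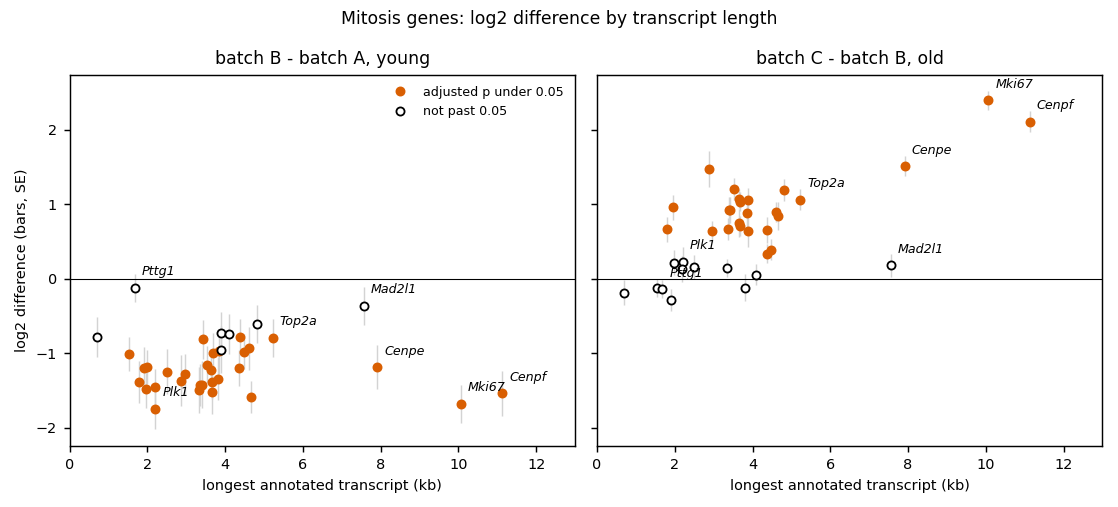
Log2 difference (points, with SE as bars) against the length of the longest annotated transcript in kb for the 37 genes, in young MSCs (batch B minus batch A, left) and old MSCs (batch C minus batch B, right). On the right, the long genes Mki67, Cenpf and Cenpe lie highest and Mad2l1 is an exception near 0, and on the left most genes lie below -0.5 at any length.

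Other genes of the cell cycle were examined from lists that were likewise chosen with earlier results of these data known. Of 73 other mitosis genes tested, 71 had a positive log2 fold change with age (median 0.61) and 2 were called, compared with 0.694% of all genes higher, Cdca5 (sororin, a cohesin regulator; 1.21, SE 0.29, adjusted p = 0.0414, edgeR) and Depdc1a (1.18, SE 0.27, adjusted p = 0.0314). In batch B 37 of the 73 were lower than in batch A and 0 were higher (median -0.81, compared with 8.71% of all genes lower), for example Kif18b, a microtubule-depolymerising motor, by a log2 difference of -1.77, and Ncapd2, a condensin subunit, of -1.37. In batch C old MSCs 55 were higher than in batch B and 0 were lower (median 0.78, compared with 32.1% of all genes higher), including the spindle pole protein Aspm (1.92), the condensin subunit Smc4 (1.11) and Hjurp (1.25), the chaperone that loads Cenpa. Among 31 genes of DNA replication and S phase, 30 had a positive log2 fold change with age (median 0.45) and 2 were called, against the same 0.694%, Gins2 (0.92, SE 0.17, adjusted p = 0.00922), a subunit of the replicative helicase, and Rrm1 (0.75, SE 0.17, adjusted p = 0.0326), a subunit of ribonucleotide reductase. In the batch comparisons 13 of the 31 were lower in batch B young and 0 higher, against 8.71% of all genes lower. In batch C old 18 were higher and 2 lower (Gins4 and Ccne1), against 32.1% of all genes higher and 32.6% lower. Between batch C old and batch A young, age and batch cannot be told apart. There, 42 of the 73 other mitosis genes were higher in batch C old and 3 were lower (median 0.50). Of the 31 genes of DNA replication and S phase, 13 were higher and 0 were lower (median 0.26). Over all genes, 32.0% were higher and 31.9% were lower.

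Of 15 genes that act in G1 or restrain the cell cycle, 0 were called in the age comparison by edgeR, 3 had an unadjusted p under 0.05, and the median log2 fold change was 0.03. In young MSCs, 3 were higher in batch B than in batch A, compared with 9.39% of all genes, and 0 were lower. These 3 were inhibitors of cyclin-dependent kinases (Cdkn2a by 0.87, SE 0.12, adjusted p = 0.00178, Cdkn1c by 1.36 and Cdkn2b by 0.45). Cdkn2a had 58.9, 73.5, 73.0 and 72.8 CPM in batch A young, 121 and 128 CPM in batch B young, 142 and 141 CPM in batch B old, and 72.2, 62.7 and 67.2 CPM in batch C old. The 4 libraries of batch B were therefore the highest for this inhibitor at both ages. Both old libraries of batch B lay above both young ones, as they did for 19.2% of all genes, and Cdkn2a was not called with age. In old MSCs, 7 of the 15 genes were lower in batch C than in batch B, including Cdkn2a (-1.07, SE 0.07, adjusted p = 1.05e-07), Cdk4 (-0.86) and cyclin D2, Ccnd2 (-0.93), and 3 were higher, Cdkn1c (0.95), Rbl2 (0.48) and Rb1 (0.38). Over all genes tested, 32.6% were lower and 32.1% were higher in batch C.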

How the data were processed

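RNA-seq counts of 11 libraries were analysed. According to the study's methods, libraries were made with the NEBNext Ultra II kit, and reads were processed with zUMIs, STAR and featureCounts on mm10 with Ensembl genes; these methods describe an oxygen comparison. The authors deposited raw counts per gene, without normalisation. Strand use is not stated, so reads of Ccna2, Plk1, Cdca8, Kif20a, Nusap1, Prc1, Cdc20 and Ube2c cannot be told from those of a gene overlapping on the opposite strand.

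Gene symbols and positions came from GENCODE M21 (GRCm38), which matched 28143 of 28222 genes. Counts were tested with edgeR 4.0.16 (R 4.3.3; glmQLFit and glmQLFTest, two-sided), with filterByExpr at a minimum count of 5, TMM factors, and Benjamini-Hochberg adjustment over all genes tested at 0.05. The SE was the log2 fold change divided by the square root of F. Fits used the libraries compared, and the age fit all 11 libraries with batch. The scripts were tested on simulated data. The members and lists were chosen with earlier results of these data known. Genes named were 12 anchors, from Mki67 to Birc5, plus the 5 smallest and 2 largest p-values per comparison, and for other lists the 3 smallest per direction. Further names were chosen after their values were seen.

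Same-numbered replicates were not taken as pairs. Replicates of a group differed by more than sampling noise (chi-square of at least 3.24 per gene). Alternatives were limma-trend (limma 3.58.1), DESeq2 1.42.0, scaling by RLE factors or by the total counts, a filter at 10 counts or none, leaving out each library, a replicate block and, for age, no batch term, batch B alone, and batch A young against batch C old.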

Additional observations from a re-analysis of the deposited data

Results flagged for a closer look

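In batch A young, the only group with 4 libraries, replicate 1 was far from the other 3 for 7 of 38 quantities examined (the 37 genes and their sum), and it was the high library each time. The gap between replicate 1 and the nearest library, as a share of the range of the group, was 0.977 for Foxm1, 0.832 for Cenpf, 0.858 for Kif11, 0.844 for Nusap1, 0.848 for Prc1, 0.915 for Hmmr and 0.875 for Anln, above Dixon's 95% critical value for 4 samples. Chance marks about 5% of groups in this way, and the genes rise and fall together, so that these are not independent cases. Without this library, 27 of the 37 genes were lower in batch B young. Over all 14741 genes, 1470 were then lower and 1426 were higher (19.6% called in either direction). The median log2 difference from batch A was then -0.92.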

How the results depend on the processing

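Of 1012 log2 fold changes of named genes recomputed under the alternatives, 893 kept their direction and their side of the threshold, 57 came to pass it, 27 no longer passed it and 35 changed sign. The number of genes called with age was 0 in the fit with batch (2.23% of all genes), 5 with DESeq2 (3.97%) and 25 without a filter (3.88%). It was 4 without the batch term (Hmmr, Kif11, Ndc80 and Top2a), where 18% of all genes were called. In batch A young against batch C old it was 16, where 63.8% of all genes were called. It was 0 to 6 when a batch A or batch C library was left out (1.5% to 3.61% of all genes). In young MSCs it was 11 to 33 and in old MSCs 22 to 32 when a library was left out. The lowest young count and the highest old count came from fits that left 1 library in batch B. Among fits that kept at least 2 libraries per group, 25 to 33 genes were lower in batch B young. In these, 8.71% to 19.6% of all genes were called in either direction. In old MSCs, 22 to 25 were higher in batch C in such fits, where 58.9% to 60.9% of all genes were called. Sign changes in the age comparison occurred without the batch term for Ccnb1 (-0.0203), Plk1 (-0.75), Cdc20 (-0.0124), Foxm1 (-0.33), Ccnb2 (-0.004), Cenpa (-0.0233), Aurka (-0.14) and Ube2c (-0.32). They occurred in batch A young against batch C old for Ccnb1 (-0.24), Plk1 (-1.02), Cdc20 (-0.0871), Foxm1 (-0.38), Birc5 (-0.19), Ccnb2 (-0.29), Cenpa (-0.37), Aurka (-0.53) and Ube2c (-0.58). Scaling by total counts turned Pttg1 to 0.0228 with age, and Ccnb2, Cenpa and Pttg1 to 0.0734, 0.079 and 0.0562 in old MSCs. Leaving out a library gave -0.16 to 0.67 for Foxm1 and -0.22 to 0.16 for Pttg1 with age, and -0.32 to 0.0649 for Pttg1 and -0.93 to 0.0535 for Mad2l1 in young MSCs. In old MSCs it gave -0.0081 to 0.32 for Birc5, -0.13 to 0.52 for Ccnb1, -0.45 to 0.32 for Cenpa, -0.19 to 0.34 for Ect2, -0.11 to 0.55 for Mad2l1, -0.12 to 0.69 for Plk1 and -0.13 to 0.45 for Ube2c. The cause of these changes was not tested.

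With the replicate block, 0 genes were called with age (27 with an unadjusted p under 0.05), 31 in young and 25 in old MSCs. The shares of all genes called were 1.75%, 4.72% and 57% in the same order. Pttg1 turned to 0.0385 in young MSCs. Deviations of same-numbered batch B young and old libraries correlated at 0.0435, and the pairing is a number only. Scaling by total counts changed the share of higher genes among all calls from 31.1% to 44.8% with age, from 51.9% to 66.4% in young and from 49.6% to 62.9% in old MSCs. The 2 libraries per age in batch B limit the age comparison.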
